A study of Mus musculus with 24 samples.

Results

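The 37 genes described here are transcribed in T cells and natural killer (NK) cells. They encode the T cell receptor and its CD3 chains, the coreceptors CD4 and CD8, costimulatory and adhesion receptors, signalling proteins, cytokine receptors, transcription factors, cytotoxic granule proteins and NK cell receptors. The members were picked by gene symbol in the deposited tables that compare angiotensin II with sham aortas, and their raw counts were read in all 24 libraries. All 37 of 37 were found among the 37606 genes of the count table. The deposited tables list 36 of them at 2 months, where Ctla4 is absent, and 37 at 4 and at 6 months.

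RNA had been extracted from homogenates of the aorta of wild-type mice. The mice had received angiotensin II (Ang II), a vasoconstrictor peptide used to make mice hypertensive, or sham treatment with vehicle, from a subcutaneous minipump for 2 weeks. Tissue was collected 2, 4 or 6 months later, so that there are 6 groups of 4 libraries: sham and Ang II at 2 months, sham and Ang II at 4 months, and sham and Ang II at 6 months. All groups share the wild-type genotype, although the series concerns the receptor tyrosine kinase Axl in aortic remodelling after hypertension. The labels give neither age nor sex, and they do not say whether the 4 libraries of a group came from separate animals or from pooled aortas. The p-values therefore reflect only how far these libraries spread, and that spread may be technical.

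Total counts ranged from 19163673 to 35130912 in the 16 libraries at 2 and 4 months and from 37639960 to 58676098 in the 8 libraries at 6 months. Mitochondrial and ribosomal RNA genes took 7.91% to 16.49% of counts in the earlier libraries and 32.08% to 66.51% at 6 months. Time and this difference between libraries cannot be told apart, so no test was run between the levels at 6 months and the earlier ones. Smooth muscle markers of the vessel wall had a summed level of 322 to 5873 CPM over 7 genes, and the sum of 6 adipocyte genes, 3870 to 15924 CPM, was above it in every library. The smooth muscle sum was 2876 to 5873 CPM in sham libraries at 2 months and 569 to 1463 CPM in the Ang II libraries, and 7 of 7 of these genes were called lower at that time (median log2 fold change -2.12). Genes of airway epithelium and skeletal muscle were also present, the last from 36.5 to 8295 CPM over 6 genes. The part of these differences in tissue in the members' levels was not tested. CPM is the usual unit for counts scaled to a common library size, here after correction by the trimmed mean of M values, and it is used for levels of single genes and of summed lists throughout.

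T cells recognise peptides on major histocompatibility molecules through a receptor of an alpha and a beta chain, which signals through the CD3 chains and the kinases Lck and Zap70. CD4 marks helper and regulatory T cells, and CD8 marks cytotoxic ones. NK cells carry no such receptor and kill through perforin and granzymes, under the control of activating and inhibitory lectin-like receptors. In hypertension, T cells are known to gather in the adventitia and the fat around the aorta, and mice without lymphocytes are known to have a blunted blood pressure response to Ang II.

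None of the T and NK cell genes passed the test for Ang II against sham at 2, 4 or 6 months, in either direction. The spread between libraries of 1 group was large for most of them. At 2 months the summed level of all 37 members was 37.3, 317, 34.2 and 25.0 CPM in the sham libraries (replicates 1 to 4) and 69.7, 289.7, 136 and 40.8 CPM in those of Ang II mice. At 4 months it was 243, 82.0, 266 and 238 CPM in sham and 70.0, 140.3, 458 and 316 CPM in Ang II libraries. At 6 months it was 49.6, 304, 87.1 and 39.0 CPM in sham and 39.9, 35.4, 92.5 and 97.5 CPM in Ang II libraries. In each pair of groups the ranges overlapped, and 1 sham library at 2 months and 1 at 6 months, replicate 2 in both, stood above the Ang II library with the highest sum. In RNA from a homogenate, fewer cells of a type and less RNA per cell cannot be told apart.

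**Figure D1:**
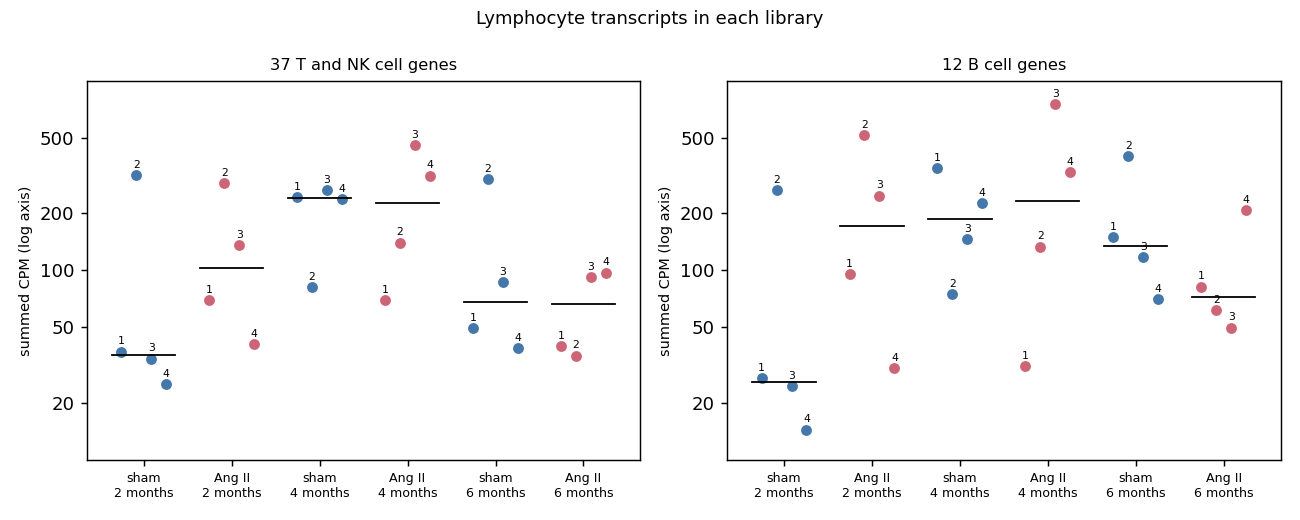
Summed CPM on a log axis of the 37 T and NK cell genes (left) and of 12 B cell genes (right) in each library, with points numbered by replicate (blue sham, red Ang II) and black lines at the group medians. Both sums are high in replicate 2 of the 2-month sham group (317 and 266 CPM) and in replicate 3 of the 4-month Ang II group (458 and 755 CPM).

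In most groups, though not in all, most members were highest in the same library. Sham replicate 2 at 2 months held the highest level of its group for 32 of the 34 members tested at that time, against 23.5% of all genes tested. Its levels were 1.30 to 39.3 times the median of the other 3 sham libraries, with a median of 10.3 over the 37 members. The highest ratio, that of Sh2d1a, rested on 47 counts in this library and 5 in the other 3 together. Ang II replicate 2 at 2 months was highest in its group for 31 of 34 members, sham replicate 2 at 6 months for 29 of 30, and Ang II replicate 3 at 4 months for 29 of 34. For all genes tested, the shares in those libraries were 28.0%, 21.1% and 38.1%. In sham at 4 months no library held most members: replicates 1, 3 and 4 were highest for 12, 15 and 7 of 34. In Ang II at 6 months replicate 4 was highest for 17 of 30 and replicate 3 for 11. The shares of all genes tested were 18.8%, 27.5% and 26.9% in these sham libraries and 24.7% and 25.7% in these Ang II libraries. At the other end, sham replicate 2 at 4 months was lowest for 32 of 34 members, and Ang II replicate 1 at 4 months for 30 of 34. Of all genes tested, 27.3% and 27.8% were lowest in these libraries.

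B cell markers were high too in the libraries where most members were highest. The sum of 12 of them, among these the signalling chain gene Cd79a and the surface antigen gene Ms4a1, was 27.0, 266, 24.6 and 14.4 CPM in sham and 95.7, 519, 248 and 30.6 CPM in Ang II libraries at 2 months. At 4 months it was 346, 74.6, 147 and 226 CPM in sham and 31.2, 134, 755 and 330.3 CPM in Ang II, and at 6 months 150.1, 402, 118 and 70.8 CPM in sham and 82.2, 62.0, 49.9 and 209 CPM in Ang II libraries. None of the 12 B cell genes was below 10 counts in every library. Glycam1, a mucin made by the high endothelial venules of lymph nodes, was at 0, 7.20, 0.0691 and 0 CPM in sham and 1.61, 8.76, 2.83 and 0.174 CPM in Ang II libraries at 2 months. Its levels at 4 months were 3.38, 1.02, 1.38 and 3.95 CPM in sham and 0, 2.03, 13.6 and 6.52 CPM in Ang II libraries. At 6 months Glycam1 stood at 0.0415, 5.08, 0.539 and 0.203 CPM in sham and 0.868, 0.218, 0.0242 and 0.231 CPM in Ang II. The library with the highest Glycam1 was also the library with the highest summed T and NK cell level in the sham and Ang II groups at 2 months, the Ang II group at 4 months and the sham group at 6 months, but not in the sham group at 4 months or the Ang II group at 6 months. Madcam1, an addressin of these venules, was at 0, 0.857, 0.0691 and 0.0410 CPM in sham and 0.239, 1.60, 0.772 and 0.139 CPM in Ang II libraries at 2 months, with replicate 2 highest in both groups. At 4 months Madcam1 was highest in sham replicate 4 (0.365 CPM) and Ang II replicate 3 (1.67 CPM), while the summed T and NK cell level was highest in replicate 3 of both. At 6 months Madcam1 was highest in sham replicate 2 (1.49 CPM) and Ang II replicate 1 (0.0599 CPM), and that summed level in replicates 2 and 4. Cxcl13, a chemokine of B cell follicles, was not highest in replicate 2 of the sham libraries at 2 months. It was at 2.19, 13.5, 2.56 and 24.9 CPM there, highest in replicate 4, the library with the lowest summed T and NK cell level. The sum of the 4 lymph node stroma genes matched was likewise higher in that library (24.9 CPM) than in replicate 2 (21.6 CPM). Of these genes, Ccl19 was at 0 in 23 of 24 libraries. The part that tissue carried along with the aorta has in the members' levels was not tested.

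Within the libraries at 2 and 4 months, the ratio to CD3 ranged narrowly for some members and widely for others. The summed CPM of Cd3d, Cd3e and Cd3g, called CD3 here, ran from 1.39 to 52.1 over these 16 libraries, a 37.4-fold range. Lck per CD3 (the CPM of 1 divided by that of the other) ran from 0.567 to 0.854, and Trbc2 per CD3 from 0.530 to 0.824. Zap70 per CD3 ran from 0.197 to 0.415 and Tcf7 per CD3 from 0.543 to 1.20. Receptor chains differed in this: Trbc1 per CD3 spanned 2.32-fold, Trac per CD3 3.82-fold and Cd247 per CD3 11.7-fold. Gzmb per CD3 spanned 23.4-fold, Gzma per CD3 23.2-fold and Ncr1 per CD3 46.5-fold. These low genes rest on few reads. The highest Gzmb per CD3, 0.323 in Ang II replicate 1 at 4 months, came from 53 Gzmb and 164 CD3 counts. The lowest, 0.0138 in sham replicate 2 at 2 months, came from 14 and 1014 counts. The part of counting error in these ranges was not tested.

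Upstream windows of the 3 CD3 genes, whose levels moved together, stand here beside that of Gzmb, whose level did not follow them. The sequences are RefSeq's for mouse build GRCm38.p6, 250 bases before the annotated start, 5′ to 3′ on the gene's strand, and capitals mark matches to the core letters AGGAAG of ETS factors or TGTGGT of RUNX factors on either strand. The windows lie at chr9:44980432-44980681 on the minus strand for Cd3g, chr9:44981536-44981785 on the plus strand for Cd3d, chr9:45009612-45009861 on the minus strand for Cd3e, and chr14:56262335-56262584 on the minus strand for Gzmb.
Cd3g: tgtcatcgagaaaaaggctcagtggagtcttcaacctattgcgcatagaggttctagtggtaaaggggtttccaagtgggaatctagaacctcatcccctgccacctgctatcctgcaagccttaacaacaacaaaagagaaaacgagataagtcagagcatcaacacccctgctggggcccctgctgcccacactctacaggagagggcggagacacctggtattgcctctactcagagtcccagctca
Cd3d: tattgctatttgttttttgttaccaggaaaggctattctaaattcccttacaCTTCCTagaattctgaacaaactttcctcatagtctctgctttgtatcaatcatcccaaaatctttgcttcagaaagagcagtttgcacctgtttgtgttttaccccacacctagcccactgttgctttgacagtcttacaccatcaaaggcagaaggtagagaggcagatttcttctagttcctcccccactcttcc
Cd3e: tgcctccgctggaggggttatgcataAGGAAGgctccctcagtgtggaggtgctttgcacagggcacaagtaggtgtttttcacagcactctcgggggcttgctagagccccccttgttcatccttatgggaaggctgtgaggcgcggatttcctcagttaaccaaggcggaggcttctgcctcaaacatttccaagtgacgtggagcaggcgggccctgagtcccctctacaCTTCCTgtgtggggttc
Gzmb: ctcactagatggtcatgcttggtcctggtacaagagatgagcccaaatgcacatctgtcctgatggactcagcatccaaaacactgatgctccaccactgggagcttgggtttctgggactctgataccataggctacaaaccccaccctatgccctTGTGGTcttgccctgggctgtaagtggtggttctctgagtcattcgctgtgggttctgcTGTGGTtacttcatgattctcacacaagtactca
Cd3g and Cd3d are transcribed away from each other from starts 1355 bases apart, and the start of Cd3e lies 27825 bases from that of Cd3d. The ETS letters occur 1 time in the Cd3d window and 2 times in that of Cd3e, and the RUNX letters occur 2 times in the Gzmb window. Cd3g has a match to neither. Over the 24 members with a window in the table, 12 held the ETS letters, 7 the RUNX letters and 9 the E-box letters CACCTG. Of all 32851 windows, 29.5%, 14.0% and 17.2% held them. Sites of different motifs may overlap, and a match is a description of the sequence only.

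The constant segments of the T cell receptor were the most abundant members per length. Over the 16 libraries at 2 and 4 months, Trbc2, a constant segment of the beta chain, had a mean level of 16.4 CPM per kb of exon, Trac, the constant segment of the alpha chain, 9.74 and Trbc1 8.31. Trbc1 and Trbc2 share 40.5% and 44.0% of their 50-base stretches, so reads may have been split between them. Cd3d was at 3.50, Cd3g at 2.17, Cd247, the zeta chain, at 1.23 and Cd3e at 1.14 CPM per kb. Cd247 shares 53.0% of its 50-base stretches with Pou2f1, a gene annotated over it, and its counts are uncertain. It varied less than the other chains at 2 months, 3.27-fold over the 8 libraries, while Cd3e varied 17.5-fold.

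At 2 months Trbc2 was at 1.94, 23.9, 1.97 and 1.15 CPM in sham and 4.63, 16.2, 8.75 and 2.72 CPM in Ang II libraries. At 4 months Trbc2 was at 16.5, 5.86, 18.1 and 15.9 CPM in sham and 3.50, 8.18, 29.1 and 23.2 CPM in Ang II libraries. At 6 months Trbc2 was at 2.03, 14.9, 3.35 and 0.924 CPM in sham and 1.38, 1.19, 4.56 and 3.16 CPM in Ang II libraries. Replicate 2 was above the other sham libraries at 2 and at 6 months, and sham and Ang II libraries overlapped at all times. The log2 fold change of Trbc2, Ang II over sham, was 0.18 (SE 1.0) at 2 months, 0.19 (SE 0.61) at 4 months and -1.07 (SE 0.84) at 6 months. At 2 months Cd3e was at 1.09, 9.33, 0.553 and 0.533 CPM in sham and 1.88, 7.08, 3.39 and 1.08 CPM in Ang II libraries. At 4 months Cd3e was at 6.22, 2.09, 8.64 and 6.97 CPM in sham and 1.45, 2.42, 12.9 and 8.61 CPM in Ang II libraries. At 6 months Cd3e was at 1.83, 12.7, 2.40 and 1.24 CPM in sham and 1.53, 0.811, 2.62 and 3.08 CPM in Ang II libraries. Levels of Cd3e, a CD3 chain needed for the receptor to reach the cell surface, were again highest in replicate 2 of both groups at 2 months and in replicate 2 of the 6-month sham group. Its log2 fold changes were 0.25 (SE 1.0), 0.09 (SE 0.67) and -1.22 (SE 0.78) at 2, 4 and 6 months. At 2 months Cd3d was at 0.776, 13.2, 0.933 and 0.328 CPM in sham and 1.49, 9.73, 5.28 and 1.15 CPM in Ang II libraries. At 4 months Cd3d was at 7.52, 4.51, 10.2 and 9.43 CPM in sham and 2.57, 5.25, 18.2 and 11.2 CPM in Ang II libraries. At 6 months Cd3d was at 0.996, 9.83, 2.10 and 0.834 CPM in sham and 0.240, 0.499, 1.58 and 1.0 CPM in Ang II libraries. Cd3d also encodes a CD3 chain, and at 6 months its level was 0.834 to 2.10 CPM in 3 of the 4 sham libraries and 0.240 to 1.58 CPM in the Ang II libraries. Cd3d had a log2 fold change at that time of -2.08 (SE 0.91; edgeR quasi-likelihood adjusted p = 0.978), the member with the smallest p there (unadjusted p = 0.0484). Of the 7 receptor genes, 7 had a log2 fold change above 0 at 2 months, 7 at 4 months and 0 at 6 months, and 0 were called at any time.

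The coreceptor genes varied widely at 2 months. At 2 months Cd4 was at 1.27, 13.7, 0.795 and 0.287 CPM in sham and 3.38, 22.8, 6.44 and 2.62 CPM in Ang II libraries. At 4 months Cd4 was at 9.44, 2.70, 12.3 and 9.83 CPM in sham and 2.61, 15.4, 25.3 and 23.1 CPM in Ang II libraries. At 6 months Cd4 was at 1.78, 20.7, 4.10 and 1.89 CPM in sham and 2.46, 1.59, 3.51 and 5.71 CPM in Ang II libraries. Cd4, the coreceptor of helper T cells, was highest in Ang II replicate 2 at 2 months, in Ang II replicates 3 and 4 at 4 months and in sham replicate 2 at 6 months, and the groups overlapped at each time. Its log2 fold change was 1.16 (SE 1.17; edgeR adjusted p = 0.846) at 2 months, 0.97 (SE 0.64; edgeR adjusted p = 0.497) at 4 months and -1.14 (SE 0.82; edgeR adjusted p = 1.0) at 6 months. At 2 months Cd8a was at 0.811, 12.7, 1.0 and 0.123 CPM in sham and 3.05, 11.5, 3.56 and 0.941 CPM in Ang II libraries. At 4 months Cd8a was at 11.2, 2.70, 9.27 and 10.4 CPM in sham and 1.53, 5.14, 20.6 and 14.7 CPM in Ang II libraries. At 6 months Cd8a was at 1.29, 11, 2.10 and 0.901 CPM in sham and 1.02, 0.749, 6.11 and 2.93 CPM in Ang II libraries. Cd8a, a chain of the coreceptor of cytotoxic T cells, differed 103-fold between the lowest and highest of the 8 libraries at 2 months, where the lowest rested on 3 counts. Its log2 fold changes were 0.42 (SE 1.21), 0.32 (SE 0.71) and -0.52 (SE 0.92) at 2, 4 and 6 months. Cd8b1, the other chain, ranged from 0.173 to 16.4 CPM over the 2- and 4-month libraries and had log2 fold changes of 0.22, 0.17 and -0.70.

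The members were also compared between sham and Ang II as ratios to CD3. Cd4 per CD3 was 0.396, 0.395, 0.295 and 0.206 in sham libraries and 0.551, 0.826, 0.432 and 0.721 in Ang II libraries, so that all 4 Ang II libraries lay above all 4 sham libraries. Of the 34 such ratios, 1 did not overlap between the groups at 2 months, that of Cd4, and 0 at 4 and at 6 months. This ratio was singled out after its values were seen, and the ratio itself was given no test. For the levels of single genes, the share of all genes tested whose Ang II libraries lay wholly above sham at 2 months was 2.38%. The like share for ratios to CD3 over all genes was not computed, so 1 of 34 is not read as a result about Cd4. At 4 months Cd4 per CD3 was 0.377, 0.266, 0.418 and 0.370 in sham libraries and 0.396, 1.18, 0.486 and 0.717 in Ang II libraries, where Ang II replicate 1 overlapped with sham. At 6 months it was 0.483, 0.697, 0.634 and 0.641 in sham libraries and 0.943, 0.699, 0.602 and 0.914 in Ang II libraries, and the groups overlapped. Cd8a per CD3 overlapped at each time, with 0.253, 0.365, 0.372 and 0.0882 in sham libraries and 0.498, 0.418, 0.239 and 0.260 in Ang II libraries at 2 months. A fit with the mean log2 CPM of the CD3 genes as a covariate was added after the data were seen. In that fit the log2 fold change of Cd4 was 0.84 (SE 0.26) at 2 months and 0.97 (SE 0.35) at 4 months. The edgeR adjusted p-values were 0.264 and 0.210, so that Cd4 was not called. Macrophage genes differed between the same groups, with 3 of 12 called at 2 months and 1 of 12 at 4 months. At 2 months Adgre1 and Cd68 rose by 0.98 (SE 0.16; edgeR adjusted p = 0.0202) and 1.51 (SE 0.27; edgeR adjusted p = 0.0280) on the log2 scale, while Mertk changed by -0.74 (SE 0.14; edgeR adjusted p = 0.0346). At 4 months Cd68 rose by 1.76 (SE 0.14; edgeR adjusted p = 0.0134). The summed level of 12 macrophage genes was 389, 457, 644 and 563 CPM in sham and 703, 969, 713 and 618 CPM in Ang II libraries at 2 months. Their part in the Cd4 level was not tested.

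**Figure D2:**
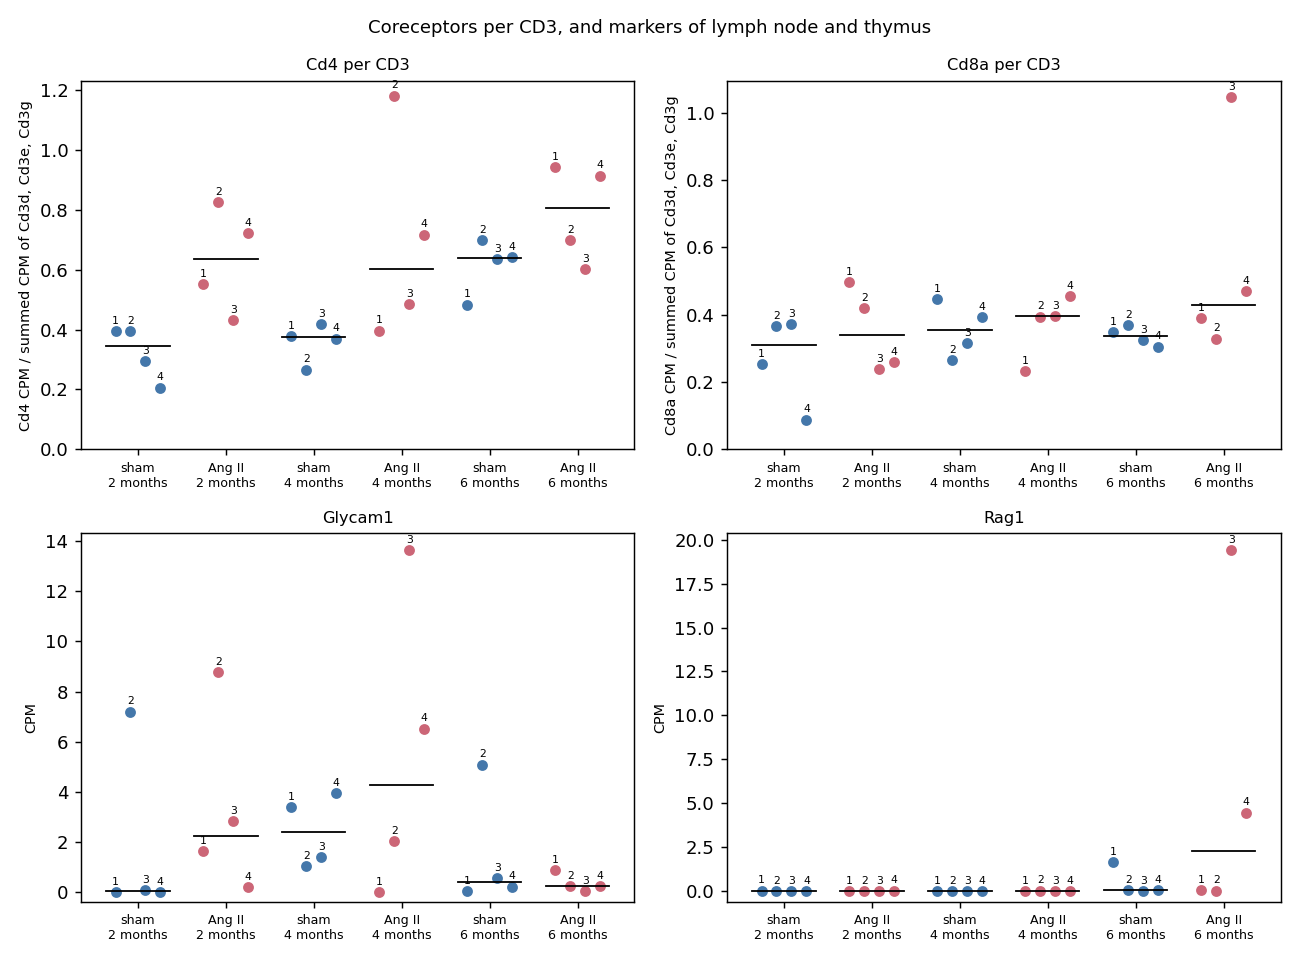
Cd4 and Cd8a per CD3 (CPM over the summed CPM of Cd3d, Cd3e and Cd3g, top), and CPM of Glycam1 and Rag1 (bottom), in each library, numbered by replicate (blue sham, red Ang II, black lines at medians). Cd4 per CD3 does not overlap between sham and Ang II at 2 months, Glycam1 reaches 13.6 CPM in replicate 3 of the 4-month Ang II group, and Rag1 reaches 19.4 CPM in replicate 3 of the 6-month Ang II group.

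Among the 8 costimulatory, adhesion and inhibitory receptors, Cd2, an adhesion receptor of T and NK cells, was the most abundant per length, at 4.67 CPM per kb. At 2 months Cd2 was at 1.59, 12.9, 1.35 and 1.44 CPM in sham and 3.32, 14.0, 9.14 and 2.09 CPM in Ang II libraries. At 4 months Cd2 was at 11.2, 3.16, 8.98 and 10.5 CPM in sham and 5.18, 6.80, 23.0 and 15.5 CPM in Ang II libraries. At 6 months Cd2 was at 6.47, 12.7, 3.71 and 2.23 CPM in sham and 1.41, 2.99, 3.56 and 9.10 CPM in Ang II libraries. The sham and Ang II ranges of Cd2 overlapped at each time, and its log2 fold changes were 0.75 (SE 0.90), 0.59 (SE 0.52) and -0.58 (SE 0.66) at 2, 4 and 6 months. At 2 months Icos was at 0.176, 0.617, 0.138 and 0.0821 CPM in sham and 0.359, 0.770, 0.515 and 0.105 CPM in Ang II libraries. At 4 months Icos was at 0.537, 0.372, 0.713 and 0.930 CPM in sham and 0.161, 0.217, 0.971 and 0.805 CPM in Ang II libraries. At 6 months Icos was at 0.0415, 1.2, 0.479 and 0.248 CPM in sham and 0.269, 0.250, 0.170 and 0.231 CPM in Ang II libraries. Icos, an inducible costimulator of activated T cells, stayed at or below 1.20 CPM in all 24 libraries. Its log2 fold change was 0.81 (SE 0.73; edgeR adjusted p = 0.821) at 2 months and -0.25 (SE 0.58) at 4 months, and it was too low to be tested at 6 months. Cd28, the main costimulator of naive T cells, reached at most 0.946 CPM and was not tested at any time within pairs of groups. Ctla4, its inhibitory counterpart, reached at most 0.913 CPM and was likewise not tested. Cd5, a damper of receptor signalling, Cd6, its relative, and Cd27, a receptor of the tumour necrosis factor family, had log2 fold changes of 0.45, 0.60 and 0.51 at 2 months and 0.29, 0.37 and 0.28 at 4 months. Sh2d1a, an adaptor of SLAM receptors, shares 25.4% of its 50-base stretches with Tenm1, and its counts are uncertain. Of the 6 genes of this group tested at 2 months, 6 had a log2 fold change above 0, and so did 4 of 6 at 4 months and 0 of 4 at 6 months. None was called.

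Of the 5 signalling genes, Lck, Lat and Zap70 had ratios to CD3 that spanned 1.51-fold, 2.00-fold and 2.10-fold over the libraries at 2 and 4 months, while those of Themis and Skap1 spanned 3.19-fold and 4.79-fold. At 2 months Lck was at 2.61, 29.7, 2.07 and 1.11 CPM in sham and 5.23, 21.6, 9.14 and 2.34 CPM in Ang II libraries. At 4 months Lck was at 17.1, 6.88, 17.3 and 18.9 CPM in sham and 3.74, 10.6, 35.9 and 22.1 CPM in Ang II libraries. At 6 months Lck was at 2.49, 20.4, 3.86 and 1.87 CPM in sham and 1.35, 0.874, 6.45 and 4.01 CPM in Ang II libraries. Lck, the kinase that starts receptor signalling, was lowest in sham replicate 4 and highest in sham replicate 2 among the 8 libraries at 2 months. Its log2 fold changes were 0.14 (SE 1.07), 0.27 (SE 0.59) and -1.20 (SE 0.90) at 2, 4 and 6 months. At 2 months Zap70 was at 0.952, 9.02, 0.795 and 0.451 CPM in sham and 2.54, 9.12, 3.86 and 0.907 CPM in Ang II libraries. At 4 months Zap70 was at 6.29, 2.00, 7.26 and 5.28 CPM in sham and 1.57, 3.0, 14.3 and 8.65 CPM in Ang II libraries. At 6 months Zap70 was at 1.24, 10.3, 2.16 and 0.879 CPM in sham and 1.11, 1.03, 1.48 and 2.47 CPM in Ang II libraries. Zap70, the kinase that binds phosphorylated CD3 chains, had its highest value at 4 months in Ang II replicate 3, and the groups overlapped. For Zap70 the log2 fold changes were 0.58 (SE 1.02), 0.41 (SE 0.65) and -1.31 (SE 0.78; edgeR adjusted p = 1.0). Lat, the membrane scaffold that Zap70 phosphorylates, ranged from 0.821 to 17.8 CPM over the 2- and 4-month libraries. Skap1, an adaptor for integrin activation, and Themis, a regulator of thymic selection, reached at most 9.87 and 5.78 CPM. All 5 had log2 fold changes above 0 at 2 and at 4 months and below 0 at 6 months, and none of the 5 was called.

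Il7r and Il2rb encode cytokine receptor chains. At 2 months Il7r was at 0.705, 10.5, 0.726 and 0.451 CPM in sham and 1.67, 8.27, 2.88 and 1.08 CPM in Ang II libraries. At 4 months Il7r was at 10.5, 2.93, 16.1 and 8.96 CPM in sham and 2.01, 2.68, 13.5 and 7.69 CPM in Ang II libraries. At 6 months Il7r was at 2.20, 24.3, 6.56 and 3.11 CPM in sham and 4.46, 3.24, 2.16 and 4.63 CPM in Ang II libraries. Il7r, a chain of the receptor for the survival factor interleukin 7, was highest in sham replicate 2 among all libraries at 6 months. Its log2 fold change was 0.21 (SE 1.08) at 2 months, -0.57 (SE 0.65) at 4 months and -1.36 (SE 0.72; edgeR adjusted p = 1.0) at 6 months. At 2 months Il2rb was at 2.54, 12.9, 2.56 and 2.34 CPM in sham and 3.73, 12.5, 8.37 and 3.35 CPM in Ang II libraries. At 4 months Il2rb was at 10.5, 3.86, 6.04 and 10.1 CPM in sham and 6.35, 8.58, 16.9 and 12.4 CPM in Ang II libraries. At 6 months Il2rb was at 3.07, 18.7, 5.06 and 3.67 CPM in sham and 3.92, 3.24, 2.67 and 6.02 CPM in Ang II libraries. Il2rb, a chain shared by the receptors for interleukins 2 and 15, varied 5.53-fold at 2 months, less than Il7r, which varied 23.2-fold. The log2 fold changes of Il2rb were 0.48 (SE 0.68), 0.55 (SE 0.38) and -0.98 (SE 0.60).

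Tcf7, a transcription factor of naive and memory T cells, was the most abundant of the 5 factors per length, at 6.34 CPM per kb over the 2- and 4-month libraries. At 2 months Tcf7 was at 3.74, 32.0, 2.49 and 1.56 CPM in sham and 5.56, 29.2, 11.9 and 2.16 CPM in Ang II libraries. At 4 months Tcf7 was at 24.7, 7.07, 35.5 and 21.9 CPM in sham and 3.58, 9.52, 44.7 and 30.8 CPM in Ang II libraries. At 6 months Tcf7 was at 4.19, 28.1, 5.54 and 2.79 CPM in sham and 2.40, 2.87, 13.0 and 9.41 CPM in Ang II libraries. Within each group at 2 months its values lay in the order of the CD3 values, with replicate 2 above the others in both groups. For Tcf7 the log2 fold changes were 0.33 (SE 1.07), -0.01 (SE 0.72) and -0.57 (SE 0.83) at 2, 4 and 6 months. At 2 months Tbx21 was at 0.811, 1.95, 0.760 and 0.862 CPM in sham and 1.17, 3.63, 2.02 and 0.941 CPM in Ang II libraries. At 4 months Tbx21 was at 2.69, 1.26, 0.923 and 1.96 CPM in sham and 1.81, 2.10, 5.86 and 2.42 CPM in Ang II libraries. At 6 months Tbx21 was at 0.581, 1.67, 0.629 and 0.451 CPM in sham and 0.449, 0.686, 0.315 and 0.848 CPM in Ang II libraries. Tbx21, which encodes the T helper 1 and NK cell factor T-bet, had the smallest p of the members at 2 months, with a log2 fold change of 0.86 (SE 0.52; edgeR adjusted p = 0.667). At 4 months its log2 fold change was 0.84 (SE 0.46; edgeR adjusted p = 0.415), and the groups overlapped at both times. At 2 months Foxp3 was at 0.317, 1.30, 0.0691 and 0.123 CPM in sham and 0.209, 1.99, 0.944 and 0.174 CPM in Ang II libraries. At 4 months Foxp3 was at 0.729, 0.0930, 0.797 and 0.930 CPM in sham and 0.121, 0.470, 2.02 and 2.05 CPM in Ang II libraries. At 6 months Foxp3 was at 1.53, 2.49, 1.02 and 0.947 CPM in sham and 1.35, 0.624, 0.848 and 2.39 CPM in Ang II libraries. Foxp3, the defining factor of regulatory T cells, shares 14.7% of its 50-base stretches with the neighbouring noncoding gene Flicr, and its counts are uncertain. Its log2 fold change was 0.86 (SE 0.84) at 4 months and -0.25 (SE 0.48) at 6 months, and it was too low to be tested at 2 months. Bcl11b, a factor of T cell commitment, reached 15.6 CPM at 6 months in sham replicate 3, a library where CD3 was at 6.47 CPM. Eomes, a factor of memory T cells and NK cells, ranged from 0 to 3.65 CPM.

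**Figure D3:**
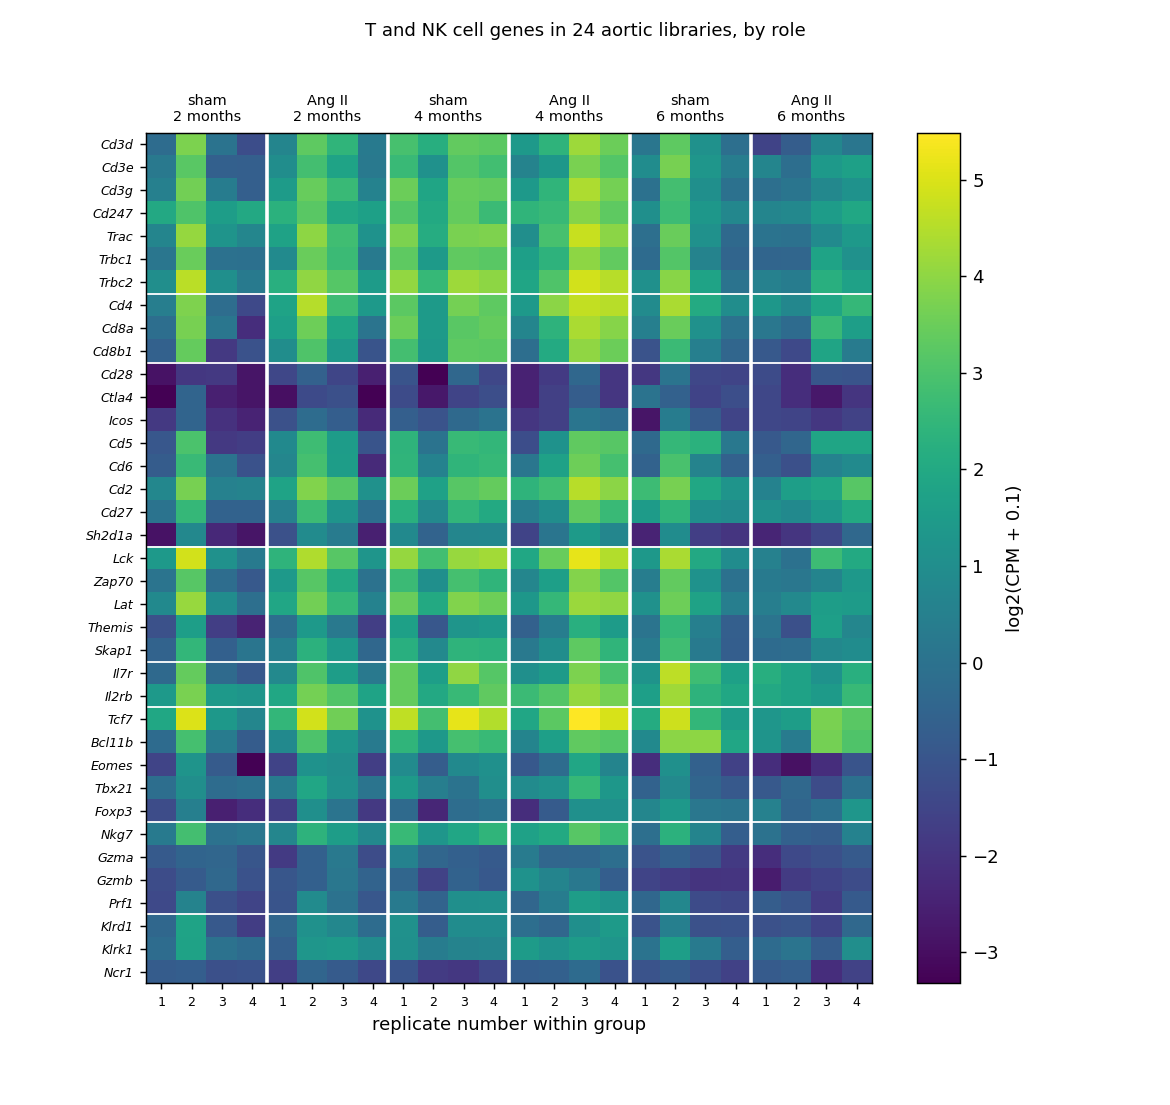
Level of each of the 37 genes (rows, grouped by role, white lines between groups) in each of the 24 libraries (columns, by group and replicate), as log2(CPM + 0.1). Columns such as replicate 2 of the 2-month sham group are bright over most rows, while Gzma, Gzmb and Ncr1 are low in every column.

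Of the 4 cytotoxic granule genes, Gzma, Gzmb and Prf1 were low, and Nkg7 was not. At 2 months Nkg7 was at 1.13, 7.17, 0.899 and 1.03 CPM in sham and 1.55, 5.11, 2.92 and 1.64 CPM in Ang II libraries. At 4 months Nkg7 was at 6.02, 2.37, 3.61 and 5.38 CPM in sham and 3.22, 4.02, 9.09 and 6.16 CPM in Ang II libraries. At 6 months Nkg7 was at 0.830, 4.93, 1.47 and 0.518 CPM in sham and 0.898, 0.562, 0.509 and 1.39 CPM in Ang II libraries. Nkg7, a granule membrane protein, was the most abundant of them per length (4.19 CPM per kb) and was highest in the same libraries as CD3 at 2 months. Its log2 fold changes were 0.16 (SE 0.76), 0.38 (SE 0.38) and -1.28 (SE 0.72; edgeR adjusted p = 1.0). At 2 months Gzma was at 0.458, 0.617, 0.657 and 0.410 CPM in sham and 0.179, 0.552, 1.07 and 0.314 CPM in Ang II libraries. At 4 months Gzma was at 1.38, 0.651, 0.545 and 0.465 CPM in sham and 1.17, 0.651, 0.660 and 0.805 CPM in Ang II libraries. At 6 months Gzma was at 0.373, 0.548, 0.389 and 0.180 CPM in sham and 0.120, 0.281, 0.339 and 0.463 CPM in Ang II libraries. Gzma, the gene of granzyme A, stayed between 0.120 and 1.38 CPM over all 24 libraries, and the library with the highest CD3 of its group was not that with the highest Gzma in any of the 4 groups at 2 and 4 months. Its log2 fold change was -0.02 (SE 0.51) at 2 months and 0.13 (SE 0.40) at 4 months, and it was not tested at 6 months. At 2 months Gzmb was at 0.317, 0.480, 0.691 and 0.369 CPM in sham and 0.418, 0.552, 1.03 and 0.593 CPM in Ang II libraries. At 4 months Gzmb was at 0.652, 0.233, 0.587 and 0.432 CPM in sham and 2.13, 1.48, 1.05 and 0.523 CPM in Ang II libraries. At 6 months Gzmb was at 0.249, 0.199, 0.150 and 0.158 CPM in sham and 0.0599, 0.187, 0.242 and 0.308 CPM in Ang II libraries. Gzmb, the gene of granzyme B, was above all sham libraries in 3 of 4 Ang II libraries at 4 months, while Ang II replicate 4 overlapped with sham. The log2 fold change of Gzmb at 4 months was 1.46 (SE 0.48; unadjusted p = 0.0149, edgeR adjusted p = 0.197), and the highest value came from Ang II replicate 1, a library low in CD3. At 2 months it was 0.48 (SE 0.38; edgeR adjusted p = 0.781). Prf1, which encodes the pore former perforin, ranged from 0.194 to 2.91 CPM, with log2 fold changes of 0.63, 0.27 and -0.88.

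Of the NK cell receptors, Klrk1 was the only tested member whose sham and Ang II levels did not overlap at 1 of the times. At 2 months Klrk1 was at 0.776, 3.26, 0.899 and 0.739 CPM in sham and 0.538, 2.35, 2.62 and 1.85 CPM in Ang II libraries. At 4 months Klrk1 was at 2.03, 1.21, 1.43 and 1.49 CPM in sham and 2.77, 2.17, 2.72 and 2.29 CPM in Ang II libraries. At 6 months Klrk1 was at 0.913, 2.96, 1.11 and 0.518 CPM in sham and 0.749, 0.936, 0.485 and 1.93 CPM in Ang II libraries. Klrk1 encodes NKG2D, an activating receptor of NK cells and CD8 T cells for stress ligands. All 4 Ang II libraries lay above all 4 sham libraries at 4 months, although the highest sham value (2.03 CPM) and the lowest Ang II value (2.17 CPM) were close. Klrk1 had a log2 fold change of 0.71 (SE 0.22; unadjusted p = 0.0111, edgeR adjusted p = 0.174) at 4 months, and it was not called. With CD3 as a covariate the value was 0.71 (SE 0.23; edgeR adjusted p = 0.171). At 2 and 6 months its log2 fold changes were 0.38 (SE 0.63) and -0.51 (SE 0.61), with overlapping groups. Wholly higher Ang II libraries at 4 months were seen in 3.22% of all 16127 genes tested and wholly lower ones in 7.03%, beside 1 and 0 of 34 members. At 2 months Ncr1 was at 0.494, 0.514, 0.346 and 0.369 CPM in sham and 0.209, 0.631, 0.472 and 0.279 CPM in Ang II libraries. At 4 months Ncr1 was at 0.384, 0.186, 0.168 and 0.266 CPM in sham and 0.522, 0.543, 0.738 and 0.362 CPM in Ang II libraries. At 6 months Ncr1 was at 0.373, 0.473, 0.329 and 0.225 CPM in sham and 0.479, 0.530, 0.121 and 0.231 CPM in Ang II libraries. Ncr1, which encodes the NK cell marker NKp46, was at or below 0.738 CPM in every library, and its sham and Ang II ranges overlapped at each time. Its log2 fold change was -0.07 (SE 0.40) at 2 months and -0.02 (SE 0.49) at 6 months. Klrd1, the gene of CD94, reached 3.33 CPM in sham replicate 2 at 2 months and had log2 fold changes of 0.15, -0.04 and -0.61.

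At 2 months after infusion, 34 of the 37 members passed the filter on low counts, and Cd28, Ctla4 and Foxp3 did not. Of these 34, 0 were called at an adjusted p under 0.05 (edgeR quasi-likelihood test, Benjamini-Hochberg over all genes), where 297 of 16421 genes (1.81%) were called in all, 0.371% higher and 1.44% lower. DESeq2 and limma voom also called 0 members, and at an unadjusted p under 0.05 there were 0. The median log2 fold change of the 34 was 0.42, against 0.01 for all genes tested, and 32 of 34 were above 0, against 51.7% of all genes. That median is smaller than the median SE of a member, 1.0, which compares with 0.19 over all genes. It ran from -0.35 to 2.24 as single libraries were left out: it was lowest without Ang II replicate 2 and highest without sham replicate 2. No member's groups lay apart, where 2.38% of all genes lay wholly higher and 5.51% wholly lower.

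At 4 months 34 members were tested, all but Cd28, Ctla4 and Ncr1, and 0 were called, where 114 of 16127 genes (0.707%) were called in all, 0.143% higher and 0.564% lower. DESeq2 and limma voom called 0 members as well. Klrk1 and Gzmb had an unadjusted p under 0.05, 2 of 34, which compares with 2502 of 16127 for all genes. The members' median log2 fold change was 0.23, against 0.04 for all genes, and 29 of 34 were above 0, against 57.0%. Under limma voom with library quality weights that median was -0.21, and without Ang II replicate 3 it was -0.23. The median SE was 0.60, against 0.17 for all genes.

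At 6 months 30 members were tested, without Cd28, Ctla4, Icos, Gzma, Gzmb, Eomes and Sh2d1a, and 0 were called, as were 0 of all 19343 genes (0%). DESeq2 and limma voom called 0 members, and Cd3d was the 1 member with an unadjusted p under 0.05, against 976 of all genes. The log2 fold change was above 0 for 0 of 30 members, against 45.2% of all genes, and the median was -0.83, against -0.03. This direction rested on sham replicate 2, whose summed T and NK cell level was 304 CPM while the other 3 sham libraries were at 39.0 to 87.1 CPM. Without that library the members' median log2 fold change was 0.16. No member's groups lay apart, where 1.33% of all genes lay wholly higher and 1.55% wholly lower.

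**Figure D4:**
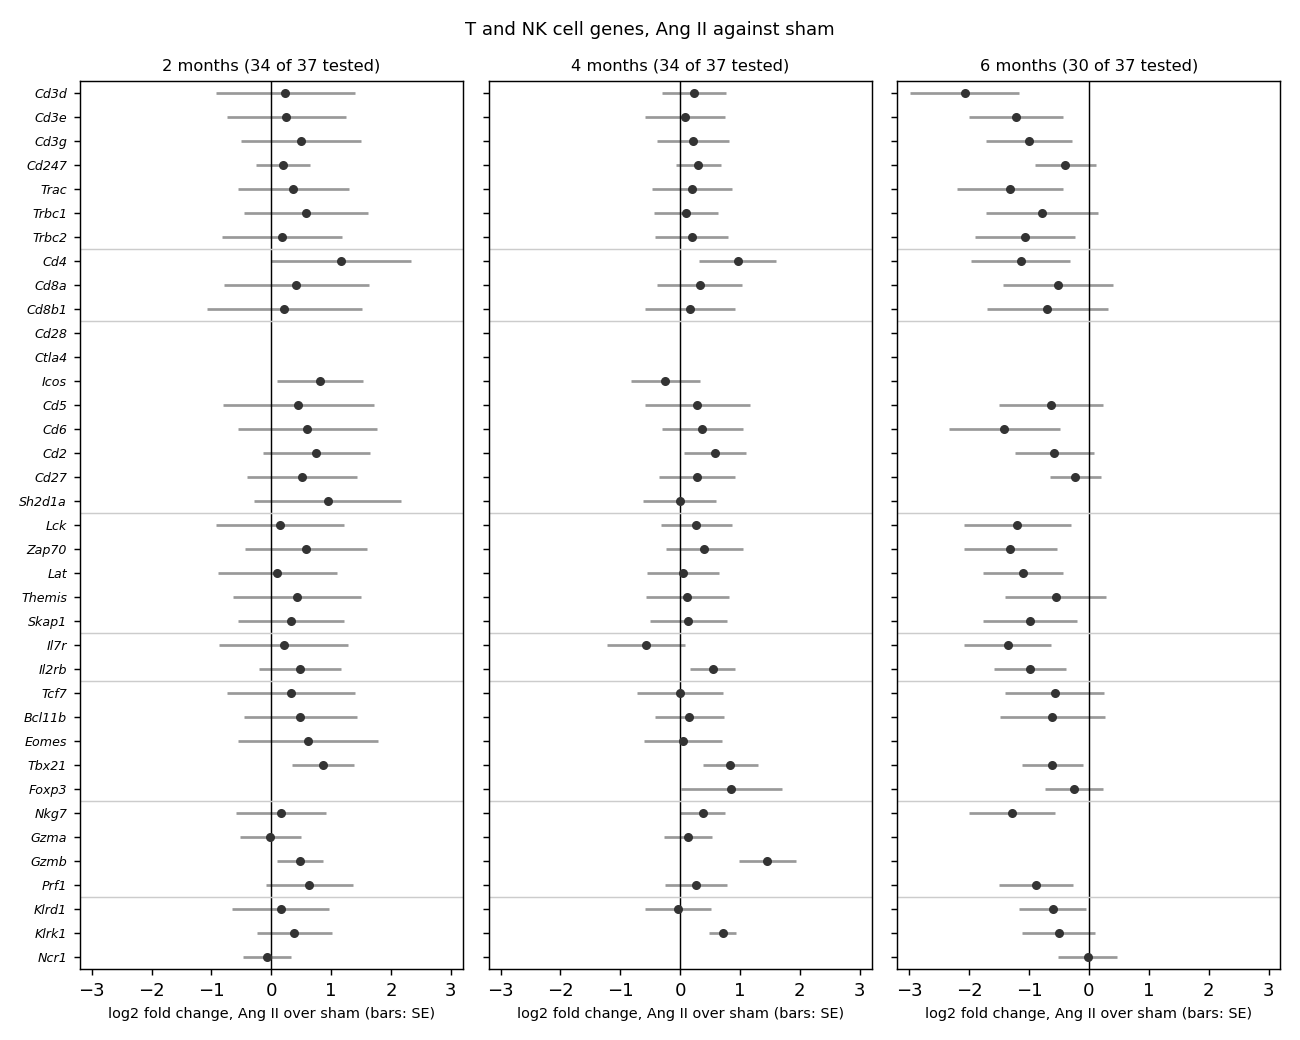
Log2 fold change of each member, Ang II over sham, at 2, 4 and 6 months (edgeR, bars show the standard error), in rows grouped by role. Members without a point did not pass the filter on low counts, and none of the points was called at an adjusted p under 0.05.

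Averaged over the 3 times with time as a block, 37 members were tested and 0 were called, as was 1 of 19218 genes (0.00520%). The median log2 fold change was -0.07, and Gzmb, at 0.70 (SE 0.28; edgeR adjusted p = 0.598), had the smallest p and was the 1 member with an unadjusted p under 0.05. The test of whether the Ang II effect differed between times called 0 of 37 members, where 103 of 19218 genes (0.536%) were called, and 0 members had an unadjusted p under 0.05. DESeq2 and limma voom called 0 members in both tests. The smallest adjusted p in the test between times was 0.519, for Gzmb.

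The deposited tables, made with DESeq2, gave the same count of members called. In the authors' deposited tables the number of members with an adjusted p under 0.05 was 0 at each time, and the smallest adjusted p was 0.6703 at 2 months, 0.08994 at 4 months and 0.411 at 6 months. Of all genes listed there, 745 of 18740 were under 0.05 at 2 months, 1028 of 18361 at 4 months and 68 of 22783 at 6 months. The log2 fold change in the authors' deposited tables was above 0 for 34 of 36 members at 2 months, 31 of 37 at 4 months and 1 of 37 at 6 months. The like share over all genes of the deposited tables was not computed. These tables were made from the same counts and are no independent measurement.

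Sham libraries at 4 months were compared with those at 2 months for levels without Ang II. Of 34 members tested, 0 were called, where 1 of 16144 genes (0.00619%) was called, and at an unadjusted p under 0.05 there were 0 members against 2549 genes. DESeq2 and limma voom called 0 members too. All 34 had a log2 fold change above 0, with a median of 0.97, against -0.02 for all genes, and the median SE was 0.90. In the same libraries 12 of 12 B cell genes were also above 0 (median 1.16) and 0 of 7 smooth muscle genes were (median -2.05), with 0 called in either list, and their part in the members' values was not tested. Icos, at 1.27 (SE 0.61; edgeR adjusted p = 0.354), had the smallest adjusted p. Of the 4 sham libraries at 2 months, 3 had summed T and NK cell levels of 25.0 to 37.3 CPM, below each of the 4 at 4 months (82.0 to 266 CPM), and replicate 2 had the highest of all 8. Groups did not overlap for 0 of the 34 members, where 3.30% of all genes lay wholly higher at 4 months and 6.11% wholly lower. Without sham replicate 2 at 2 months the members' median was 2.75, again with 0 members called.

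Other genes of the pathways were followed in lists that share no member with the 37. Of 24 further genes of T cell receptor signalling, such as the phosphatase gene Ptprc, 0 were called at 2, 4 or 6 months. Their median log2 fold changes were 0.50, 0.17 and -0.33, with 22, 18 and 3 of 24 above 0. Of 13 cytokine and effector genes matched, 4 (Gzmc, Ifng, Il10 and Il2) were below 10 counts in every library, and of the 5, 6 and 4 tested at the 3 times 0 were called. Of 16 further NK and gamma delta T cell genes, 9, 10 and 7 were tested, with 0 called and medians of 0.27, 0.66 and -0.54. This list includes Fcer1g and Tyrobp. Its summed level differed 1.10- to 1.37-fold between the lowest and highest library of a group, and that of the 37 members 2.75- to 12.7-fold. The narrow range of the list's sum did not hold for each of its genes. In sham libraries at 4 months the sum was 55.0 to 65.7 CPM. Of its genes, Klrb1c ran from 0.252 to 1.30 CPM there and Trdc from 0.279 to 1.07 CPM. Which cells transcribe the listed genes here was not tested. The 8 genes of the interleukin 7 and 15 system, among them the ligands Il7 and Il15 and the kinases Jak1 and Jak3, had medians of 0.12, 0.11 and 0.00, with 0 called. Of the 15 homing and trafficking genes tested, such as Ccr7, 0 were called, and the medians were 0.42, 0.58 and -0.41. The 12 B cell genes had medians of 1.39, 0.63 and -0.94, with 0 called.

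At 6 months some libraries also held transcripts of genes used by developing lymphocytes, most of all Ang II replicates 3 and 4. Rag1, a recombinase of developing lymphocytes, was at 0.0599, 0.0312, 19.4 and 4.47 CPM in the Ang II and 1.66, 0.0747, 0 and 0.0676 CPM in the sham libraries. Dntt, which adds bases at the joints of receptor genes, was at 0, 0, 4.00 and 1.0 CPM in the Ang II and 0.539, 0.398, 0 and 0.0451 CPM in the sham libraries. At 2 and 4 months Rag1 was at most 0.0362 CPM. The sum of 5 thymocyte genes was 29.1 CPM in Ang II replicate 3 and 9.02 CPM in Ang II replicate 4, and at most 3.15 CPM in the other 22 libraries. In Ang II replicates 3 and 4, Arpp21 was at 5.28 and 3.08 CPM of these sums and Rag2 at only 0.339 and 0.463 CPM. Arpp21 was also at 1.35 CPM in sham replicate 2 at 4 months, where Rag1 was at 0 and the skeletal muscle sum was 8295 CPM. Ptcra, the pre-T cell receptor alpha gene and a defining marker of thymocytes, was below 10 counts in every library. In Ang II replicate 3, Cd8a per CD3 was 1.05, where the other 7 libraries at 6 months were between 0.305 and 0.469. Tcf7 per CD3 was 2.23 in that library and 0.856 to 1.51 in the other 7. Not all members stood out there. Cd4 per CD3 was 0.602 in that library, the lowest of the Ang II libraries at 6 months and within the sham range of 0.483 to 0.697. Bcl11b per CD3 was 2.13, the highest of the Ang II libraries, but it reached 2.41 in sham. The skeletal muscle sum at 6 months was 487, 876, 7063 and 5794 CPM in Ang II libraries (replicates 1 to 4) and 44.5 to 515 CPM in sham libraries. The part of thymic tissue or of skeletal muscle in these levels was not tested.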

How the data were processed

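Total RNA from 24 aortic homogenates of mice was sequenced as messenger RNA libraries, per the labels. Per the submitters' processing notes, the tools were STAR, featureCounts, cutadapt, FastQC and DESeq2 and the build mm10; for versions, strand setting and treatment of shared reads, the sources used here give nothing. Whole-number read counts per gene were deposited by the authors. The authors also deposited, per time, a table with these counts, a DESeq2 base mean (a signal scaled by size factors), a log2 fold change with its error, a test statistic (score), p-values and a fold change as a ratio. All 24 columns were matched to samples by name. Replicates of a group differed by more than sampling noise in every pair (chi-square per degree of freedom at least 26.4), so none was merged.

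Counts were tested with edgeR 4.0.16 in R 4.3.3: filterByExpr (at least 10 counts, 15 in total) chose the genes, which were scaled by TMM and tested with glmQLFTest, with Benjamini-Hochberg adjustment over all genes at 0.05. Standard errors were taken as the absolute log2 fold change divided by the root of the F statistic. Each Ang II comparison used the 8 libraries of its time, the average and the test between times all 24. The procedure was tested on simulated data. Alternatives were DESeq2 1.42.0, its size factors in edgeR, no filter, a mean count of at least 5, limma 3.58.1 voom with quality weights, mitochondrial and ribosomal genes left out, a replicate block, 1 fit of 24 libraries and leaving out each library; covariates for CD3 and B cell genes were added after seeing the data.

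The members and lists were chosen with earlier results of these data known. Values in every library are printed for the 4 members with the smallest p at each time, the member with the highest mean CPM in each role, and Cd3e, Cd4, Cd8a, Foxp3, Ncr1 and Gzma. Ccl21a and Fdcsp were not used here. Promoter windows came from RefSeq's GRCm38.p6 table, which held 24 of the 37 members, and stretches of 50 bases were compared over GENCODE transcripts.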

Additional observations from a re-analysis of the deposited data

Results flagged for a closer look

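A library was set apart where its gap to the nearest of the other 3 libraries of its group, divided by the range of the group, exceeded the 95% critical value of Dixon's test for 4 values. By chance this happens in about 1 in 20 groups, and over all 37 members it happened in 29 of 37 in the sham group at 2 months, 1 in Ang II at 2 months, 8 in sham and 1 in Ang II at 4 months, and 18 in sham and 0 in Ang II at 6 months. Since the members move together, these are few independent observations.

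Sham replicate 2 at 2 months stood far above the other 3 libraries in the summed level of the members, with a ratio of 0.958. The ratios of single members there were 0.915 for Tbx21, 0.927 for Cd4, 0.936 for Klrk1, 0.953 for Cd3d, 0.973 for Il7r, 0.963 for Nkg7 and 0.942 for Zap70. For Trbc2 it was 0.964, for Cd2 0.979, for Il2rb 0.979, for Lck 0.947, for Tcf7 0.928, for Cd3e 0.936 and for Cd8a 0.930. In sham replicate 2 at 6 months the ratio was 0.854 for Tbx21, 0.878 for Cd4, 0.860 for Cd3d, 0.865 for Zap70, 0.873 for Il2rb, 0.892 for Lck, 0.891 for Tcf7, 0.900 for Cd3e and 0.881 for Cd8a.

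Sham replicate 2 at 4 months stood far below the others of its group in the summed level (0.845) and in Lck (0.849). Ang II replicate 3 at 4 months stood far above the others in Tbx21 (0.850).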

How the results depend on the processing

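No member was called under any alternative in 5 of the 6 comparisons, and at 2 months 1 was, Tcf7 with the B cell covariate (-0.98, adjusted p = 0.0485; edgeR). The smallest adjusted p of a member over the alternatives was 0.0933 at 4 months, 0.385 at 6 months, 0.10 for the average, 0.148 between times and 0.0508 for sham at 4 against 2 months. Some fold changes turned their sign. The CD3 covariate includes Cd3e, so for Cd3e it is not independent of the value it adjusts. The log2 fold change of Cd3e at 2 months was -0.034 with the CD3 and -0.60 with the B cell covariate. At 4 months Cd3e was at -0.45 under voom, -0.17 with the replicate block, -0.12 with the CD3 and -0.37 with the B cell covariate. Over leave-one-out fits Cd3e ran from -0.45 to 2.26 at 2 months. At 4 months it ran from -0.49 to 0.41 and at 6 months from -1.53 to 0.14, while at 6 months Cd4 ran from -1.51 to 0.34 and Zap70 from -1.64 to 0.067. At 2 months Icos was at -0.22 with the B cell covariate. At 6 months, where Cd3e, Cd4, Zap70, Il7r and Nkg7 lay between -1.36 and -1.14, the CD3 covariate gave 0.22 for Cd3e, 0.51 for Cd4, 0.26 for Zap70, 0.084 for Il7r and 0.020 for Nkg7, and the B cell covariate 0.24 for Cd3e, 0.39 for Cd4, 0.23 for Zap70 and 0.040 for Nkg7. The cause of these changes of sign was not tested.

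The count of all genes called moved more. DESeq2 called 691, 940 and 63 genes at 2, 4 and 6 months, 58 for the average, 536 between times and 736 in sham, and voom 629 at 2 months, 602 at 4 months, 30 for the average, 787 between times and 801 in sham. At 4 months no low-count filter gave 40, a mean count of at least 5 gave 68, leaving out mitochondrial and ribosomal RNA genes 233 and 1 fit of all libraries 11. In sham no filter gave 4 and 1 fit 453. The CD3 covariate gave 190 at 4 months, 45 between times and 0 in sham, and the B cell covariate 104 at 2 months, 205 at 4 months, 39 between times and 0 in sham. Leaving out 1 library gave 78 to 255 at 2 months, 0 to 674 at 4 months (674 without sham replicate 4), 1 to 7 for the average, 34 to 308 between times and 0 to 641 in sham. No pairing by replicate number was assumed. The deviations of log2 CPM from the group mean were correlated between same-numbered sham and Ang II libraries. These correlations ran from -0.296 to 0.414 (2 months), -0.188 to 0.325 (4 months) and -0.157 to 0.501 (6 months). Same-numbered libraries were each other's best match only for replicate 2 at 2 months (0.414), replicate 2 at 4 months (0.325) and replicate 3 at 6 months (0.501). Whether numbers stand for pairs was not settled by this check. With the replicate block 0 genes were called at 4 months, 0 for the average, 1 between times and 140 in sham. Members at a few counts per library, such as Cd28, Ctla4 and Ncr1, are limited by depth.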

Other observations

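Ccl5, a chemokine made by T and NK cells, was at 1.73, 22.9, 2.42 and 1.48 CPM in sham and 5.23, 22.3, 10.4 and 3.14 CPM in Ang II libraries at 2 months. At 4 months Ccl5 was at 19.0, 7.21, 7.72 and 23.6 CPM in sham and 7.44, 12.9, 25.6 and 29.5 CPM in Ang II libraries. It was highest in replicate 2 of both groups at 2 months, as CD3 was. At 4 months Ccl5 was highest in replicate 4 of both groups, while CD3 was highest in replicate 3 of both (29.5 CPM in sham and 52.1 CPM in Ang II). Trdc, the constant segment of the delta chain of the gamma delta T cell receptor, was at 1.07, 0.279, 0.671 and 0.697 CPM in sham and 1.0, 0.941, 1.67 and 1.57 CPM in Ang II libraries at 4 months, and the groups overlapped. Klrb1c, which encodes the NK cell marker NK1.1, was at 1.30, 0.326, 0.252 and 0.664 CPM in sham and 1.04, 0.615, 1.71 and 0.725 CPM in Ang II libraries at that time, again with overlap. These genes were singled out after their values were seen, and no explanation was tested.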
